A study of Mus musculus with 8 samples.

Results

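The 10 genes described here, Hk1, Gpi1, Pfkm, Pfkp, Aldoa, Tpi1, Pgk1, Eno2, Pkm and Ldhb, encode enzymes of glycolysis. They were picked by gene name, and each of the 10 names was found among the 13996 genes with FPKM values. All 10 passed the filter on low expression, which left 13982 genes. The RNA came from brain cortexes of male C57BL/6 mice, a wild type inbred strain, aged 16 weeks. From the age of 8 weeks, 4 mice ate a conventional diet (normal mice) and 4 mice ate a diet with 60% fat by weight (high fat diet fed mice, or HFD mice), each for 8 weeks. Each mouse gave 1 library of rRNA-depleted RNA. FPKM counts fragments scaled to both transcript length and library size, so levels of different genes can be set side by side. The depth behind the values is unknown.

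Glycolysis splits glucose into pyruvate in the cytosol and yields ATP on the way. Neurons draw most of their energy from glucose, and glial cells can release lactate, which neurons turn back into pyruvate. Hexokinase traps glucose in the cell, glucose-6-phosphate isomerase rearranges it, and phosphofructokinase commits it to the pathway. Aldolase and triose-phosphate isomerase yield triose phosphates, phosphoglycerate kinase and pyruvate kinase make ATP, enolase makes the substrate of pyruvate kinase, and lactate dehydrogenase links pyruvate with lactate. Several of these steps have more than one enzyme form (isozyme), each from a gene of its own and each with its own preferred tissue or cell type.

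As the question was whether the diets differed in the RNA of these enzymes, the sequences just before the transcription starts of the 4 enzymes that differed are shown first. Each run holds the 250 bases before an annotated start (RefSeq, GRCm38.p6), on the strand of the gene and ending next to the start. Capitals mark matches on either strand to ACGTG, the core of the hypoxia response element, to CACGTG, the E box that contains this core, and to GGGCGG, the GC box. Hk1 has 2 annotated starts, at chr10:62379909-62380158 and chr10:62340422-62340671, both on the minus strand. The others are Gpi1 at chr7:34230337-34230586 on the minus strand, Pgk1 at chrX:106186850-106187099 on the plus strand and Ldhb at chr6:142507958-142508207 on the minus strand.
Hk1, first start: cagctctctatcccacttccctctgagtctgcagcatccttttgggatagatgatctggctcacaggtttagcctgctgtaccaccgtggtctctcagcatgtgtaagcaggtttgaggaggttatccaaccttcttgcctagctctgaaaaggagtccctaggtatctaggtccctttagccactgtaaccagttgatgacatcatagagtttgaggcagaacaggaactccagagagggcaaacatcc
Hk1, other start: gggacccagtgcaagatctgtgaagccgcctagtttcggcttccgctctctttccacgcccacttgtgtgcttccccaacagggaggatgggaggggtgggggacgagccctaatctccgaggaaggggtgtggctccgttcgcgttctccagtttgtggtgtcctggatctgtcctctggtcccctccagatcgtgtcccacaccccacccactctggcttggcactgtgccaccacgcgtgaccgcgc
Gpi1: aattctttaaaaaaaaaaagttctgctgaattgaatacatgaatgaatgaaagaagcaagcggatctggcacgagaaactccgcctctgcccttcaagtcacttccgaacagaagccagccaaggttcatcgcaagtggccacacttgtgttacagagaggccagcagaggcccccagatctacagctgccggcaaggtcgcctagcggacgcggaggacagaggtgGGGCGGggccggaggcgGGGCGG
Pgk1: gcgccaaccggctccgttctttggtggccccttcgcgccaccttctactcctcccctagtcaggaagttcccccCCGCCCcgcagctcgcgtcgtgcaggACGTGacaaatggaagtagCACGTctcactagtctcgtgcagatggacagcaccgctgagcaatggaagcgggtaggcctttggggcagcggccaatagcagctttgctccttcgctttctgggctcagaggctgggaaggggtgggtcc
Ldhb: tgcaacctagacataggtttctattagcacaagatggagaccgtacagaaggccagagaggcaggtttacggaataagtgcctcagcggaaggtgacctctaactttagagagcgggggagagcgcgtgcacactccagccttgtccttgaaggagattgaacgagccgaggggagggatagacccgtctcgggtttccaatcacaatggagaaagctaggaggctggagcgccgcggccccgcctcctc
In these windows Pgk1 has 2 matches to ACGTG and 1 to the GC box, Gpi1 has 2 GC boxes, and the windows of Hk1 and Ldhb have no match to any of these letters. The 10 genes have 17 annotated start windows in all, of which 6 hold ACGTG, 1 holds CACGTG and 7 hold GGGCGG. Some windows of Aldoa overlap each other, as do some of Pfkm, and matches of Aldoa count in more than 1 window. By gene, ACGTG is found for 4 of 10 genes and GGGCGG for 6 of 10. Of 32851 windows of the same length before annotated starts across the genome, 16.6% hold ACGTG, 6% CACGTG and 32.7% GGGCGG. These shares are per window. They cannot be set against the counts by gene, as several windows give a gene more chances of a match. These matches describe the letters and were not compared with the diet difference.

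Markers of other regions and cells differed between the diets in the same libraries. By the limma test given below, 17.7% of all genes tested were higher in HFD mice and 15.3% lower. In bulk tissue, fewer cells of a type and less RNA per cell cannot be told apart. All 7 tested striatum markers were lower in HFD mice, with a summed FPKM of 205.0 to 375.8 in normal mice and 58.0 to 68.3 in HFD mice. Of 6 tested cerebellum markers 4 were lower (53.5 to 358.9 against 35.3 to 42.6 summed over 7 genes, of which Gabra6 was listed at 0 in an HFD mouse). Of 8 thalamus markers 3 were lower, Prkcd, Calb2 and Plekhg1 (65.8 to 182.1 against 44.9 to 48.9 summed over the 8). In normal mice 1 to 4 Calb2 alone held 11.0, 71.2, 83.1 and 36.6 FPKM of the thalamus sum, and Prkcd 11.7, 35.1, 30.1 and 6.9. Whether the thalamus sum varied apart from the cerebellum sum was not tested. Also lower were 10 of 10 oligodendrocyte markers (2236 to 3666 against 1536 to 2126) and 5 of 5 blood markers (239.2 to 479.7 against 199.1 to 247.4). Of 10 markers of cortical excitatory neurons 7 were higher (304.1 to 453.8 against 499.5 to 586.9). Of 8 astrocyte markers 2 were higher and 3 lower (784.7 to 868.7 against 766.9 to 811.4), and of 7 microglia markers 1 was higher (109.4 to 132.8 against 115.8 to 126.6). The markers of cortical excitatory neurons, such as Slc17a7 (209.5 to 403.9 FPKM over the 8 mice), were present in every library. Normal mice 2 and 3 stood apart from the other normal mice, with cerebellum sums of 268.1 and 358.9 against 53.5 and 104.8. Their thalamus sums were 182.1 and 178.0 against 65.8 and 77.6. Diet differences of the 10 enzymes and the isozyme ratios are therefore also given without them, as is the number of other pathway genes that passed.

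The enzymes spanned a wide range of expression, and their order was nearly the same on both diets. Aldoa (chromosome 7 of GRCm38, 126795234 to 126800751), the aldolase of muscle and brain, had the highest level, between 1030.6 and 1124.2 FPKM in normal mice, and ranked 5 among 12519 mRNAs by mean level over the 8 mice. Pkm, pyruvate kinase, followed with 610.5 to 667.2 FPKM, and Tpi1, triose-phosphate isomerase, with 355.5 to 377.9. Ldhb (284.8 to 327.9 FPKM) and Eno2 (272.2 to 287.2 FPKM) came next in normal mice. Their values overlapped, and on the high fat diet their order was exchanged. Gpi1 (155.8 to 162.2) and Pfkm (145.8 to 162.3) also overlapped in normal mice. Pgk1 was at 125.2 to 143.3 FPKM, apart from its neighbors. Hk1 (91.5 to 105.0) and Pfkp (85.3 to 97.2) were the lowest of the 10 and overlapped. Hk1 stood at rank 9 in normal mice and at rank 8, above Pgk1, in HFD mice. Even Pfkp ranked 613 among the 12519 mRNAs.

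**Figure D1:**
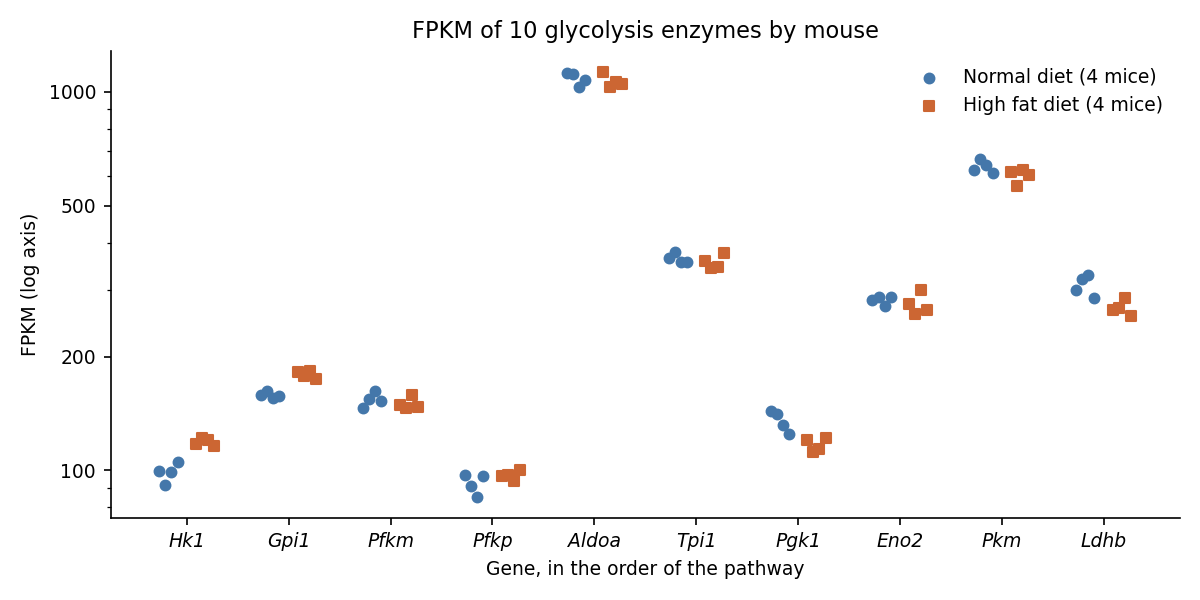
FPKM on a log axis of the 10 enzymes in each of 4 normal mice (circles) and 4 HFD mice (squares), with genes in the order of the pathway. Aldoa is highest in every mouse (1030.6 to 1129.5 FPKM), and Pfkp is lowest in high fat diet fed mice (93.8 to 100.3 FPKM).

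The 4 mice of a diet varied little among themselves in these RNAs. The coefficient of variation of an enzyme was between 1.71% and 6.33% in normal mice and between 2.24% and 6.39% in HFD mice, with medians of 4.17% and 4.08%. The 694 genes with a mean level at least as high as that of the lowest enzyme had medians of 5.62% and 5.06%. Summed over the 10 enzymes, FPKM was 3337.1, 3406.8, 3262.4 and 3253.0 in normal mice 1 to 4 and 3309.4, 3121.0, 3286.7 and 3209.2 in HFD mice 1 to 4. The mean sum was 3314.8 ± 71.9 (SD, n = 4) on the normal diet and 3231.6 ± 85.3 (SD, n = 4) on the high fat diet. The ranges overlapped, and the means differed by -2.51%. Of the FPKM of all protein-coding genes, the 10 enzymes made up 0.997% ± 0.0168 in normal mice and 0.979% ± 0.0188 in HFD mice. High fat diet fed mouse 2 had the lowest value of its diet for 6 of the 10 enzymes.

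Between the diets, Hk1 and Gpi1 were higher in HFD mice, and Pgk1 and Ldhb were lower. The other 6 enzymes, Pfkm, Pfkp, Aldoa, Tpi1, Eno2 and Pkm, did not pass the test. The test was limma on log2(FPKM + 0.1) over the 13982 genes, two-sided, with an adjusted p below 0.05. Thus 4 of 10 enzymes passed, 2 in each direction, while 33.1% of all genes tested passed, 17.7% higher and 15.3% lower. The share of enzymes that passed was close to that of all genes. The median log2 fold change of the 10 enzymes was -0.03 and that of all genes was 0.003, and the median of its absolute size was 0.07 for the enzymes and 0.17 for all genes. No enzyme differed by more than 1.5 fold between the diets in either direction, whereas 7.13% of all genes did so and passed the adjusted p. The enzymes rank from 5 to 613 among 12519 mRNAs, while all genes reach down to a mean of 1 FPKM. The sizes of the change were not compared with those of genes at a similar level. The values of the diets did not overlap for 3 of the 10 enzymes, Hk1, Gpi1 and Pgk1, and for 31.9% of all genes tested.

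**Figure D2:**
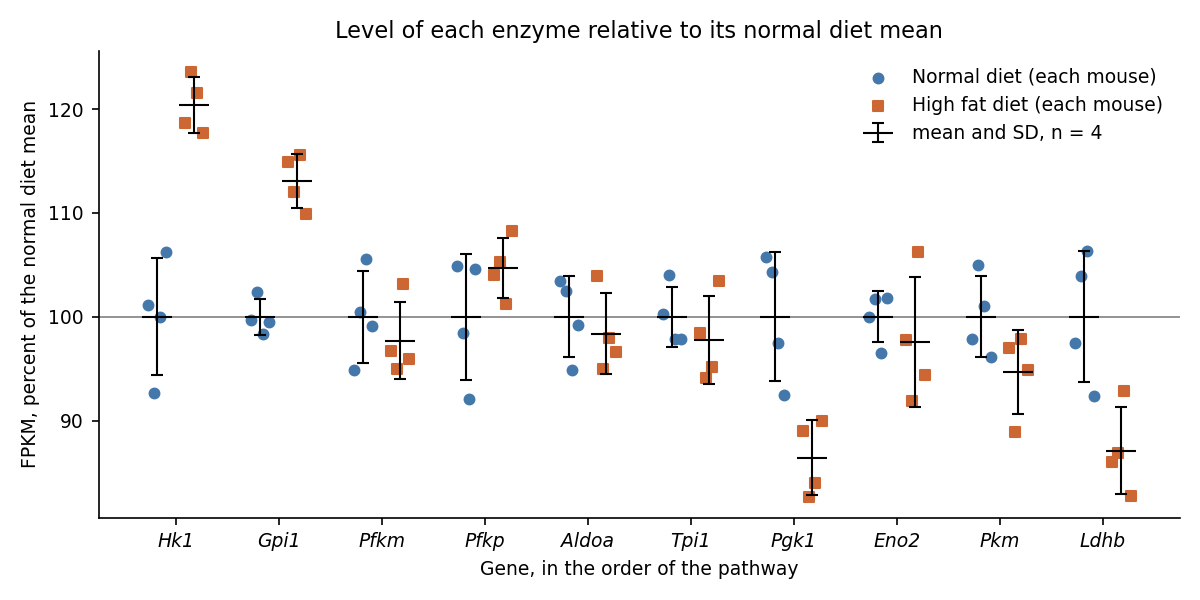
FPKM of each enzyme in each mouse as a percent of its mean in normal mice, with mean and SD (n = 4) per diet. Hk1 and Gpi1 of HFD mice lie above every normal mouse, Pgk1 lies below every normal mouse, and the other genes overlap.

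Hk1 (ENSMUSG00000037012.18, chromosome 10, 62268855 to 62379908, minus strand) encodes hexokinase 1, the main hexokinase of the brain, which can bind to mitochondria. Its FPKM was 99.9, 91.5, 98.8 and 105.0 in normal mice 1 to 4 and 117.2, 122.1, 120.1 and 116.3 in HFD mice 1 to 4. Every HFD mouse was above every normal mouse. The mean rose from 98.8 ± 5.57 to 118.9 ± 2.67 FPKM (SD, n = 4). On the log2 scale the difference was 0.27 ± 0.049 (standard error; limma, adjusted p = 0.0038). This is a rise of 20.5%, with a 95% interval of 11.7% to 30.0%.

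Gpi1 (ENSMUSG00000036427.5, chromosome 7, 34201330 to 34230336, minus strand) encodes glucose-6-phosphate isomerase, which also works in the link to the pentose phosphate pathway. Its FPKM was 157.9, 162.2, 155.8 and 157.6 in normal mice and 182.0, 177.4, 183.0 and 174.0 in HFD mice. The diets did not overlap, and the normal mice were close to each other. The difference in log2 FPKM was 0.18 ± 0.039 (standard error; limma, adjusted p = 0.0087), a rise of 13.1% with a 95% interval of 6.38% to 20.2%.

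Pgk1 (ENSMUSG00000062070.12, chromosome X, 106187100 to 106203699, plus strand) encodes phosphoglycerate kinase 1, the enzyme of the first step of glycolysis that yields ATP. Its FPKM was 143.3, 141.3, 132.1 and 125.2 in normal mice and 120.6, 112.0, 113.8 and 121.9 in HFD mice. The diets did not overlap, but normal mouse 4 was close to HFD mouse 4. The difference in log2 FPKM was -0.21 ± 0.055 (standard error; limma, adjusted p = 0.0181), a change of -13.5% with a 95% interval of -20.6% to -5.77%. Without normal mouse 2 the adjusted p was 0.0532, and without HFD mouse 2 it was 0.0549, both from limma.

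Ldhb (ENSMUSG00000030246.11, chromosome 6, 142490249 to 142507957, minus strand) encodes the heart type subunit of lactate dehydrogenase, which is common in neurons. Its FPKM was 300.7, 320.6, 327.9 and 284.8 in normal mice and 265.3, 268.0, 286.3 and 255.3 in HFD mice. High fat diet fed mouse 3 was above normal mouse 4, so the diets overlapped. The difference in log2 FPKM was -0.20 ± 0.060 (standard error; limma, adjusted p = 0.0303), a change of -12.8% with a 95% interval of -20.5% to -4.38%. The adjusted p rose to 0.0823 without normal mouse 2, 0.0748 without normal mouse 3 and 0.0705, 0.0678 and 0.0758 without HFD mouse 1, 2 and 4, all from limma.

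The phosphofructokinases Pfkm and Pfkp did not pass the test. Pfkm (chromosome 15, 98092589 to 98132451), the muscle form, which the brain also expresses, was 145.8, 154.4, 162.3 and 152.3 FPKM in normal mice and 148.7, 146.0, 158.5 and 147.5 in HFD mice. The log2 fold change of Pfkm was -0.03 ± 0.048 (standard error; limma, adjusted p = 0.623). Pfkp (chromosome 13, 6579768 to 6648777), the platelet form, was 97.2, 91.2, 85.3 and 96.9 FPKM in normal mice and 96.4, 97.5, 93.8 and 100.3 in HFD mice. Normal mouse 3 was the lowest of the 8 for Pfkp and the highest for Pfkm. The log2 fold change of Pfkp was 0.07 ± 0.051 (standard error; limma, adjusted p = 0.333).

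Aldoa lay between 1030.6 and 1124.2 FPKM on the normal diet and between 1032.2 and 1129.5 on the high fat diet, nearly the same range. Tpi1 (chromosome 6, 124810586 to 124814296) ranged from 355.5 to 377.9 and from 341.9 to 375.9. Eno2 (chromosome 6, 124760053 to 124769673), the enolase of neurons, lies 40913 bp from Tpi1 and ranged from 272.2 to 287.2 and from 259.2 to 299.5. Its values on the high fat diet thus enclosed those on the normal diet. Pkm (chromosome 9, 59656368 to 59679375) had 621.7, 667.2, 641.6 and 610.5 FPKM in normal mice and 616.2, 564.7, 621.6 and 602.5 in HFD mice, with overlap. The log2 fold changes were -0.02 for Aldoa, -0.03 for Tpi1, -0.04 for Eno2 and -0.08 for Pkm, with standard errors of 0.062, 0.050, 0.054 and 0.056. For the 6 enzymes that did not pass, the 95% intervals of the change reached from -13.3% (Pkm) to 13.5% (Pfkp). The interval of Pkm includes a fall as large as that of Ldhb and the interval of Pfkp a rise as large as that of Gpi1, so a p above the threshold does not show that an enzyme was the same on both diets.

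**Figure D3:**
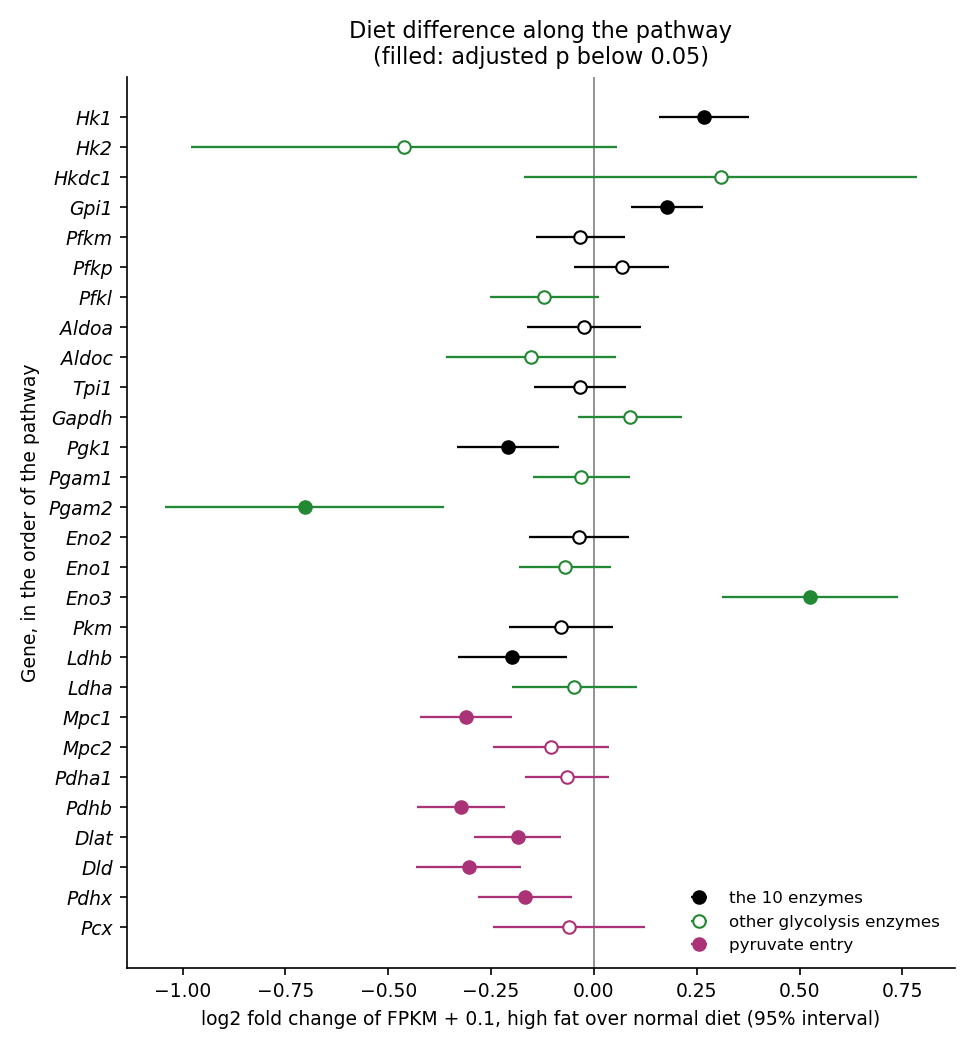
Log2 fold change of FPKM + 0.1, high fat over normal diet, with 95% intervals from limma, for the 10 enzymes (black), the other glycolysis enzymes (green) and the genes of pyruvate entry into mitochondria (purple). Filled points passed the adjusted p, which are Hk1, Gpi1, Pgk1 and Ldhb among the 10, and all filled purple points lie below 0.

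The other enzymes of glycolysis with FPKM values are forms of the same steps and the enzymes of the steps between them. Of 19 listed genes, 10 were tested, of which 1 was higher, 1 was lower and 8 did not pass, with a median log2 fold change of -0.06. Of all genes tested, 33.1% passed. Gapdh, which acts just before Pgk1, was 749.6, 765.5, 707.0 and 701.3 FPKM in normal mice and 800.0, 746.7, 770.3 and 788.7 in HFD mice. These values overlapped, and Gapdh differed by 0.09 ± 0.056 on the log2 scale (standard error; limma, adjusted p = 0.256). Pgam1, the phosphoglycerate mutase of most tissues, had a log2 fold change of -0.03, and Eno1, the widespread enolase, -0.07. Ldha, the muscle type subunit of lactate dehydrogenase, was at -0.05, Aldoc, the aldolase of the brain and of astrocytes in particular, at -0.15, and Pfkl, the liver form of phosphofructokinase, at -0.12. The genes that passed were both muscle forms with low levels in these libraries. Pgam2 fell from 4.23 ± 0.746 to 2.55 ± 0.420 FPKM (SD, n = 4; log2 fold change -0.70, adjusted p = 0.0077 from limma). Eno3 rose from 3.2 ± 0.271 to 4.65 ± 0.420 FPKM (SD, n = 4; log2 fold change 0.53, adjusted p = 0.0038 from limma). Hk2 (0.8 to 1.9 FPKM over the 8 mice) and Hkdc1 (2.4 to 4.9 FPKM) are hexokinases far below Hk1, and neither passed, with log2 fold changes of -0.46 and 0.31.

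The ratio of an isozyme pair within a mouse does not depend on the scaling between mice. The 6 pairs were each tested by an exact permutation test, two-sided, which runs through 70 assignments of mice to diets and has a smallest p of 0.0286. Ldha was 0.604, 0.517, 0.446 and 0.606 of Ldhb in normal mice and 0.626, 0.570, 0.547 and 0.656 of it in HFD mice. The ranges overlapped, and the difference in log2 ratio was 0.15 (exact p = 0.314, adjusted p = 0.48). Pfkp was 0.605 ± 0.0614 of Pfkm in normal mice and 0.647 ± 0.0390 in HFD mice (SD, n = 4; exact p = 0.229, adjusted p = 0.48). Eno1 and Eno2 were nearly equal, with a ratio of 0.972 ± 0.0530 and 0.949 ± 0.0235 (SD, n = 4; exact p = 0.486, adjusted p = 0.486). Aldoc was 0.494 ± 0.0764 of Aldoa in normal mice and 0.447 ± 0.0107 in HFD mice, and Pfkl was 0.304 ± 0.0346 and 0.285 ± 0.0130 of Pfkm. Their exact p were 0.343 and 0.4, with adjusted p = 0.48 for both. Hk2 was 0.0138 ± 0.00484 and 0.00776 ± 0.00112 of Hk1, a difference in log2 ratio of -0.77 (exact p = 0.0571, adjusted p = 0.343), where the rounding of FPKM to 0.1 limits Hk2. No ratio passed after adjustment, but a single ratio could not have, since its adjusted p can be no lower than 0.171 and at least 4 of the 6 ratios would have to reach the smallest p.

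**Figure D4:**
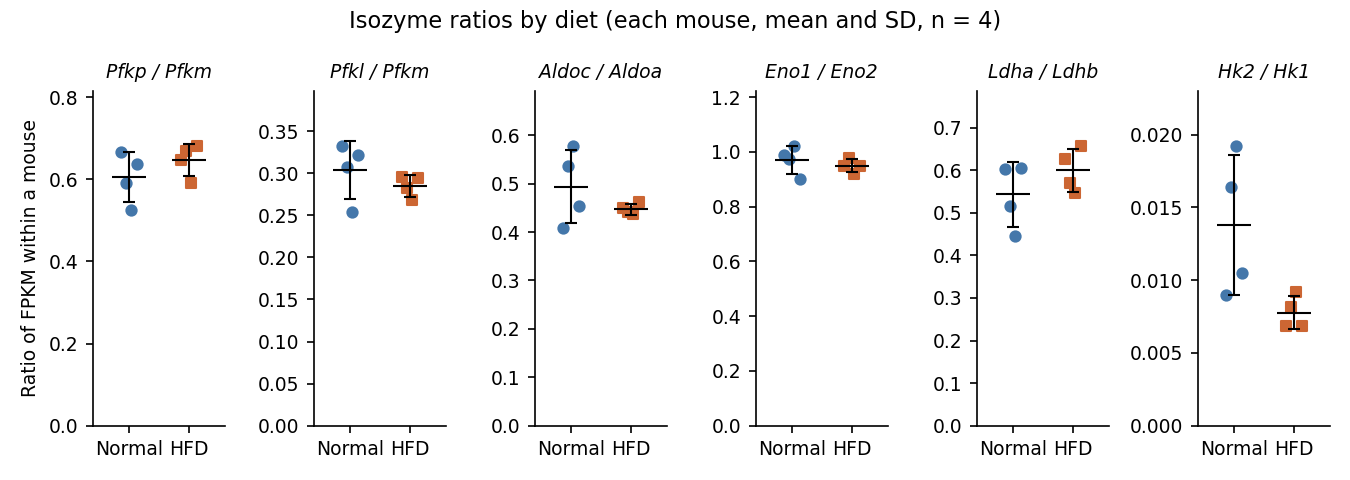
Ratio of the FPKM of 2 isozymes within each mouse, for 4 normal mice (circles) and 4 HFD mice (squares), with mean and SD, each vertical axis starting at 0. The diets overlap in all 6 ratios, and normal mice are more spread than HFD mice.

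Around glycolysis, 4 lists of genes were compared in the same fit. As background for each of these lists, 33.1% of all genes tested passed, 17.7% higher and 15.3% lower. Together with the other glycolysis enzymes the lists hold 56 tested genes, of which 23 passed. Without normal mice 2 and 3 this count was 14, and with the cerebellum markers as a covariate it was 2. Pyruvate that enters mitochondria passes the pyruvate carrier and the pyruvate dehydrogenase complex. Of 8 genes of this entry, 5 were lower in HFD mice, none was higher, and 3 did not pass, with a median log2 fold change of -0.18. Pdhb, a subunit of pyruvate dehydrogenase, was 63.1, 68.3, 65.8 and 60.7 FPKM in normal mice and 52.9, 52.6, 50.2 and 50.1 in HFD mice, without overlap. On the log2 scale Pdhb differed by -0.32 ± 0.048 (standard error; limma, adjusted p = 0.0016). Mpc1, a subunit of the carrier, fell from 98.2 ± 6.15 to 79.0 ± 0.602 FPKM (SD, n = 4; log2 fold change -0.31, adjusted p = 0.0024 from limma). The other 3 that fell, named after their values were seen, were Dld, Dlat and Pdhx of the same complex, with log2 fold changes of -0.30, -0.19 and -0.17.

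Of 17 tested genes that control glycolysis and pyruvate dehydrogenase, 2 were higher, 5 lower and 10 not past the test, with a median log2 fold change of -0.08. The share of all genes that passed, 33.1%, is the background for the lists of this paragraph as well. Pdk2, a kinase that inhibits pyruvate dehydrogenase, rose from 20.9 ± 1.92 to 27.3 ± 2.72 FPKM (SD, n = 4; log2 fold change 0.38, adjusted p = 0.0089 from limma). The other kinases of this kind went in different directions. Pdk1 was higher (0.29) and Pdk3 lower (-0.21), both past the test, and Pdk4 did not pass (-0.02). Hif1a, a transcription factor of the response to low oxygen, which is known to raise genes of glycolysis, fell from 28.6 ± 4.01 to 22.6 ± 1.61 FPKM (SD, n = 4; log2 fold change -0.33, adjusted p = 0.0273 from limma). Of 7 genes of the pentose phosphate pathway, which branches off at the substrate of Gpi1, 1 was higher and 2 were lower, with a median of -0.09. G6pdx, which opens that branch, fell by 0.47 on the log2 scale (adjusted p = 0.0071 from limma), and Pgd, a later dehydrogenase, rose by 0.36 (adjusted p = 0.0128 from limma). Of 14 genes of glycogen and glycerol phosphate, 2 were higher and 4 lower, with a median of -0.07. Gbe1, the glycogen branching enzyme, was at -0.49 and Pygm, the muscle form of glycogen phosphorylase, at -0.48 (adjusted p = 0.0020 and 0.0320 from limma). Of the normal mice, 2 and 3 lay furthest from the HFD mice for Hif1a, G6pdx, Pygm and Pdk1. They had 31.0 and 32.9 FPKM of Hif1a against 24.9 and 25.4 in normal mice 1 and 4. G6pdx was at 15.3 and 14.5 against 11.4 and 11.6. Pygm was at 17.3 and 16.2 against 10.7 and 12.9, and overlapped between the diets. For Pdk2, Pdk3 and Pgd these mice lay nearest, and for Gbe1 in between. Fold changes of single pathway genes without them are not given.

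Among the 4 enzymes that passed, normal mice 2 and 3, whose cerebellum and thalamus sums were highest, were also at one end for Hk1 or Ldhb. Normal mouse 2 had the lowest Hk1 of all mice, and normal mice 2 and 3 had the highest Ldhb. With both mice left out, Hk1 at 0.22 (limma, adjusted p = 0.0199) and Gpi1 at 0.18 (limma, adjusted p = 0.0317) still passed on the log2 scale, whereas Pgk1 (-0.20, adjusted p = 0.0784) and Ldhb (-0.12, adjusted p = 0.19, both from limma) did not. With the mean level of the cerebellum markers as a covariate, 0 of the 10 enzymes passed limma's adjusted threshold, 3 had an unadjusted p below 0.05, and 360 of the 13982 genes passed. In that fit Hk1 was at 0.19 and Gpi1 at 0.17, Pgk1 was at -0.25 and Ldhb at -0.09. Their standard errors were 0.086, 0.072, 0.102 and 0.102, against 0.049, 0.039, 0.055 and 0.060 without the covariate. The summed markers of cerebellum, striatum, thalamus, oligodendrocytes and cortical excitatory neurons did not overlap between the diets, so their part in these differences, in the fit with the cerebellum covariate too, cannot be told apart from that of the diet. The part of the blood markers was not tested.

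**Figure D5:**
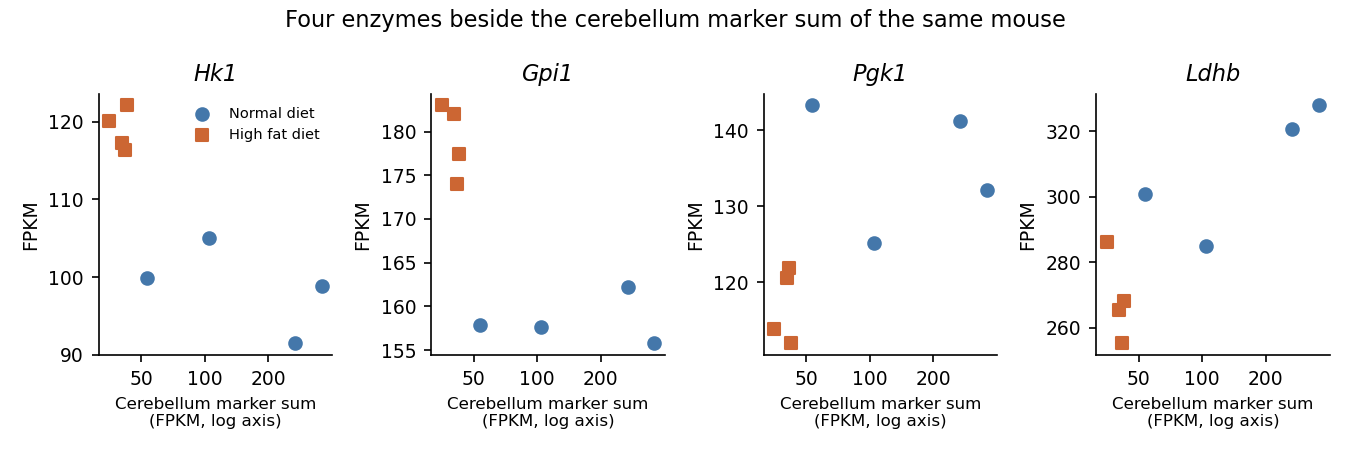
FPKM of Hk1, Gpi1, Pgk1 and Ldhb against the summed FPKM of 7 cerebellum markers in the same mouse (log axis), for normal mice (circles) and HFD mice (squares). Normal mice 2 and 3 lie to the right, with the highest Ldhb, while Gpi1 stays between 155.8 and 162.2 FPKM in normal mice over the whole range of marker sums.

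Some fragments may belong to other genes. In GENCODE M21 on GRCm38, 19 pseudogenes matched a transcript of these enzymes with at least 90% identity over at least 200 bases, 8 of them for Pkm, 4 for Pgk1, 3 for Aldoa, 2 for Tpi1 and 1 each for Gpi1 and Ldhb. For Hk1, Pfkm, Pfkp and Eno2 none matched. None of the 19 pseudogenes is among the 13996 genes with FPKM values, so their own levels are unknown. Hk1 and Gpi1 each overlap a noncoding gene on the opposite strand, Hk1os and Gm26762, neither with FPKM values. Pkm overlaps Gm49759, a gene on its own strand with a mean of 5.71 FPKM, over 3887 bases. Pfkm overlaps Gm26513, which has no FPKM values, on its own strand over 2489 bases. Aldoa, Pfkm, Pfkp and Tpi1 each overlap a protein-coding gene on the other strand. The libraries were stranded, but the sources used here do not say whether strand was used in counting.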

How the data were processed

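RNA was measured in the cortexes of 4 normal mice and 4 HFD mice. The authors deposited FPKM per gene, rounded to 0.1. They checked and trimmed reads with FastQC and Trimmomatic, aligned them to mm10 by STAR, and took expression from Cuffnorm under the basic set of GENCODE M17. No versions of these programs were found in the sources used here. Depth is unknown because only FPKM values, without read counts, were used, so no counting interval is given. Whether the mice shared litters or cages is not stated, so p-values measure the spread between these mice.

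Genes whose mean FPKM reached 1 and that were above 0 in every mouse, 13982 in all, were fitted as log2(FPKM + 0.1) by limma 3.58.1 (R 4.3.3, trended variance), and p-values were adjusted after Benjamini-Hochberg. The procedure was tested on simulated data. Ratios and sums used Python 3.11.15, pandas 2.3.3, numpy 2.4.6 and scipy 1.17.1, figures matplotlib 3.10.9, and pseudogenes BLAST 2.17.0. Coordinates are from GENCODE M21, later than the authors' annotation.

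The 10 enzymes, the 5 pathway lists and the 8 marker lists were chosen with earlier results of these data known. The text names the 10 enzymes, every other glycolysis enzyme tested, and in each other pathway list the 2 genes with the largest change that passed. The 3 other genes of pyruvate entry that passed were named after their values were seen, as were Pdk1, Pdk3 and Pdk4. Alternatives were other added constants, filters and scalings, no variance trend, a replicate block, marker covariates and each mouse left out. Scaling to protein-coding sums and leaving out normal mice 2 and 3 were chosen after seeing the data.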

Additional observations from a re-analysis of the deposited data

Results flagged for a closer look

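Of 54 groups of 4 values checked, 2 held a value far from the other 3 by Dixon's test, where chance flags about 1 in 20 groups. Eno1 in normal mouse 4 was 258.1 FPKM, while normal mice 1 to 3 held 279.1, 279.2 and 278.8. Eno3 in normal mouse 2 was 2.8 FPKM, while the other normal mice held 3.3, 3.3 and 3.4, in values rounded to 0.1.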

How the results depend on the processing

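The number of enzymes that passed stayed at 3 or 4 of 10 under other added constants, filters and scalings and without a variance trend. It was 0 with cerebellum or with striatum markers as a covariate (limma, 3 and 0 at an unadjusted p below 0.05) and 2 without normal mice 2 and 3, when 360, 0 and 2743 of all genes and 2, 0 and 14 of 56 other pathway genes passed (23 in the report). With each mouse left out it was between 2 and 4, that of all genes between 3295 and 4619 and that of other pathway genes between 14 and 22. The lowest count of enzymes, 2, came without normal mouse 2 or HFD mouse 2. No enzyme exceeded 1.5 fold together with the adjusted p in any of these fits. Hk1 and Gpi1 passed whichever of the 8 mice was left out, Pgk1 in 6 and Ldhb in 3. Ldhb was also lost with equal FPKM sums (-0.18, adjusted p = 0.0908) and quantile normalization (-0.14, adjusted p = 0.158, both from limma). The striatum covariate, which separates the diets, raised the standard error of Hk1 from 0.049 to 0.268 and turned Hk1 (-0.056), Aldoa (0.21), Tpi1 (0.16), Pgk1 (0.42), Pkm (0.11) and Ldhb (0.042), while 276 of all genes had an unadjusted p below 0.05. The cerebellum covariate turned Pfkm (0.073) and Pfkp (-0.069), leaving out normal mice 2 and 3 turned Pfkm (0.010) and Pfkp (-0.0012), and quantile normalization turned Aldoa (0.19, adjusted p = 0.0501 from limma) and Eno2 (0.0026). The cause was not tested. Without normal mice 2 and 3 the difference in log2 ratio turned for Aldoc to Aldoa (0.055), Pfkp to Pfkm (-0.012), Ldha to Ldhb (-0.016) and Eno1 to Eno2 (0.0079), and was -0.33 for Hk2 to Hk1 and -0.20 for Pfkl to Pfkm. Without normal mouse 3 alone Ldha to Ldhb was 0.060. As equal replicate numbers carry no pairing in the labels and same-numbered mice did not deviate together (r between -0.109 and -0.0275, with 0 of 8 mice closest to their own number), the replicate block only shares a number. With it Pgk1 had an adjusted p of 0.0507 from limma, 3 of 10 enzymes passed and 14 other pathway genes passed. Among called genes, 53.6% were higher, and 59.9% with equal FPKM sums.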
